A study of Mus musculus with 6 samples.

Results

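The genes described here encode the NADPH oxidases and dual oxidases of the mouse with their partner subunits: Nox1, Noxo1, Noxa1, Nox4, Duox1, Duox2, Duoxa2, Cybb and Cyba. They were taken by gene symbol from a table of 33573 genes, and each of the 9 symbols matched 1 gene. The libraries were RNA-seq of tumors and of colon tissue from C57BL/6 mice in which colorectal cancer had been induced by azoxymethane (AOM), a carcinogen, and dextran sodium sulfate (DSS), which injures the colon epithelium. Male mice aged 8 to 10 weeks received 10 mg/kg AOM and 3 cycles of 2.5% DSS, and tissue was taken at week 16. Each tissue had 3 libraries, with the numbers 2, 4 and 20, and all 6 came from treated, tumor-bearing mice. The colon libraries therefore stand for colon beside tumors and not for the colon of an untreated mouse.

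NADPH oxidases move electrons from NADPH in the cytosol across a membrane to oxygen, which yields superoxide or hydrogen peroxide. In the colon epithelium the catalytic subunit Nox1 works with the membrane partner Cyba, also called p22-phox, the organizer Noxo1 and the activator Noxa1. Duox2 releases hydrogen peroxide at the mucosal surface and needs the maturation factor Duoxa2 to leave the endoplasmic reticulum, and phagocytes use the catalytic subunit Cybb, also called gp91-phox, with Cyba and cytosolic partners to kill microbes.

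Total counts were between 16995481 and 20789620 per library. Libraries of the same tissue correlated at 0.955 or more in log2 CPM, where CPM are counts scaled to library size, and libraries of different tissues at 0.890 or less. The labels name the samples tumor cells and normal colon cells, but frozen tissue was used, and markers of many cell types were present. The summed CPM of 12 pan-epithelial genes was 9925 to 11478 in tumor and 10433 to 11614 in colon. That of 8 smooth muscle markers was 566 to 1117 in tumor and 9091 to 9506 in colon. In such bulk tissue, fewer cells of a type and less RNA per cell cannot be told apart. The paper calls the tumor and colon tissues of its RNA-seq paired, but it compared their sterol enzyme expression by an unpaired t test. Its general statistics section speaks of distinct samples. The labels do not tie each number to an animal. The main test treated the 6 libraries as unpaired, and results with equal numbers taken as pairs are given beside it. The p-values therefore speak of the spread among these 6 libraries.

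Of the 9 oxidase genes, Cyba, Duoxa2 and Duox2 rose in tumor, Nox1 and Noxa1 fell, and Noxo1, Cybb, Nox4 and Duox1 did not pass the test. The calls thus went in both directions among genes of the same family. Only Cyba kept its call in all 17 alternative settings. Nox1 and Duox2 lost theirs once equal numbers were treated as pairs, called the block below (edgeR adjusted p = 0.0619 and 0.0695). All 9 genes passed the count filter and were tested by edgeR's quasi-likelihood test on counts, with p-values adjusted by the Benjamini-Hochberg method over all 18520 genes tested and a threshold of 0.05. The same test called 16.1% of all genes higher and 16.1% lower, or 32.2% in either direction, against 5 of the 9 oxidase genes. The median log2 fold change was 0.60 over the 9 genes and 0.01 over all genes tested. The CPM values of tumor and colon did not overlap for 6 of the 9 genes, and 49.6% of all genes tested showed no overlap. With 9 genes, these counts do not set the family apart from the rest of the table. Every fold change divides tumor by colon, n is 3 in each tissue, and the standard errors (SE) are approximate.

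**Figure D1:**
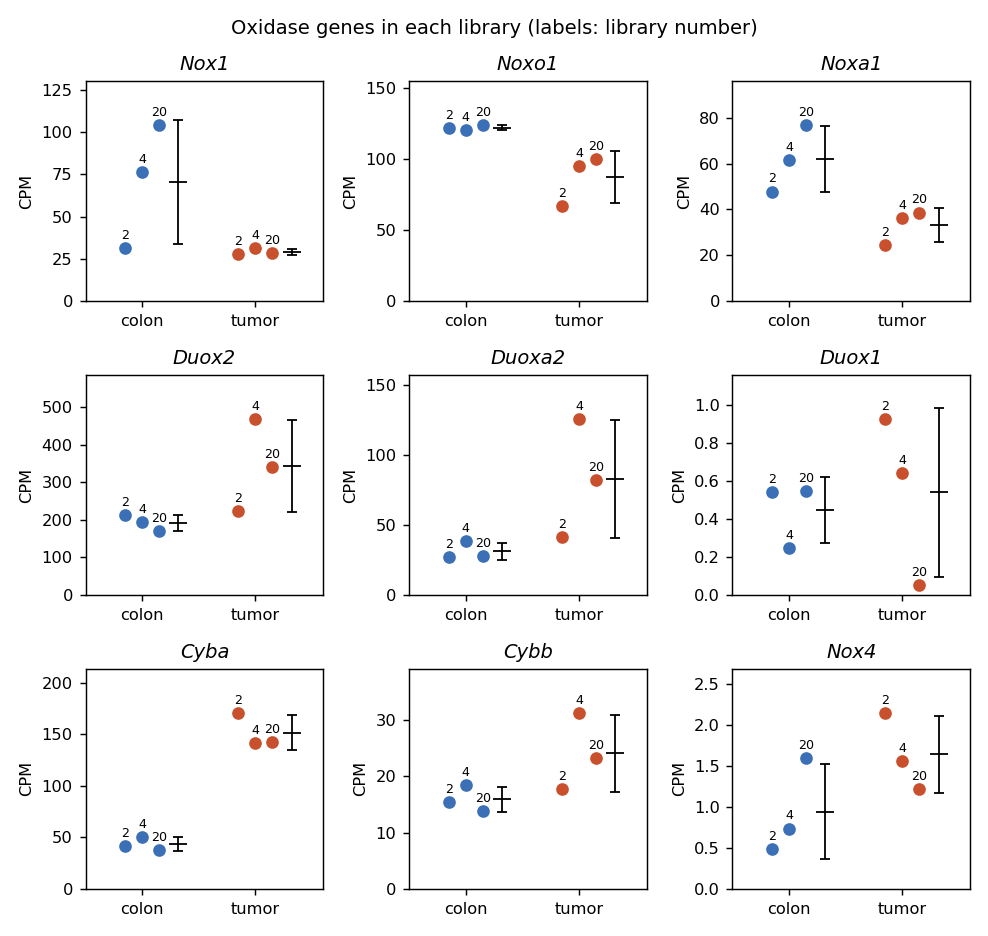
CPM of the 9 oxidase genes in each library, with 1 panel per gene; dots are libraries marked with their number, and bars show the mean and SD of 3 tumor or 3 colon libraries. The 3 tumor libraries lie above the 3 colon libraries for Cyba, Duox2 and Duoxa2 and below them for Nox1, Noxo1 and Noxa1, while the groups overlap for Nox4, Duox1 and Cybb.

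The first question was whether the epithelial Nox1 complex differed between tumor and colon. Nox1 (ENSMUSG00000031257, GRCm39 chromosome X, 132987170 to 133122705, minus strand) had 28.0, 31.4 and 28.5 CPM in tumors 2, 4 and 20 and 31.6, 76.2 and 104 CPM in colons 2, 4 and 20. The tumors were close to each other and all below the colons, but colon 2 was nearly as low as tumor 4, and the spread lay among the colon libraries. Mean Nox1 was 29.3 ± 1.82 CPM in tumor and 70.6 ± 36.6 CPM in colon (SD), and Nox1 fell by 1.27 on the log2 scale (SE 0.38, edgeR adjusted p = 0.0406). Within the numbers 2, 4 and 20 the log2 CPM differences of Nox1 were -0.17, -1.28 and -1.86, so the same-numbered tissues of number 2 hardly differed. The call was lost with the number as a block (edgeR adjusted p = 0.0619). It was kept in 8 of 17 alternative settings, and of the fits that left out 1 library it was kept only without colon 2, at a log2 change of -1.62 (edgeR adjusted p = 0.00219); without one of the other libraries the adjusted p was 0.0721 to 0.118.

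Of 4 distal hindgut genes, Hoxb13 and Hoxd13 also differed among the colon libraries, whereas Hoxa13 was at 43.1, 48.9 and 52.7 CPM in colons 2, 4 and 20. Hoxb13 was at 281, 201 and 138 CPM and Hoxd13 at 189, 65.6 and 7.80 CPM in colons 2, 4 and 20, so colon 2, the library lowest in Nox1, was the highest in Hoxb13 and Hoxd13 and the lowest in Hoxa13. None of these genes passed the test between tumor and colon (edgeR adjusted p = 0.126 for Hoxa13, 0.252 for Hoxb13 and 0.940 for Hoxd13), and their part in the Nox1 result was not tested. The summed CPM of 8 surface colonocyte markers, 5 of which were called lower and 0 higher, was 345 to 1013 in tumor and 1647 to 3244 in colon. Its part in the changes of the Nox1 complex was not tested either.

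Noxa1, the activator of Nox1 (ENSMUSG00000036805, chromosome 2, 24975679 to 24985161, minus strand), had 24.7, 36.4 and 38.7 CPM in tumors 2, 4 and 20 and 47.8, 61.4 and 76.7 CPM in colons 2, 4 and 20. Every tumor lay below every colon, and library 2 was the lowest in both tissues. Mean Noxa1 was 33.2 ± 7.50 CPM in tumor and 62.0 ± 14.5 CPM in colon (SD), a fall by 0.90 on the log2 scale (SE 0.23, edgeR adjusted p = 0.0226). The differences within the numbers 2, 4 and 20 were -0.95, -0.75 and -0.99 on the log2 scale and thus closely alike. The call of Noxa1 was kept with the block and in 14 of 17 alternatives, and was lost without colon 4 (edgeR adjusted p = 0.0666) or colon 20 (edgeR adjusted p = 0.0682).

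Noxo1, which organizes the complex at the membrane (ENSMUSG00000019320, chromosome 17, 24915208 to 24919503, plus strand), had 66.8, 95.3 and 100.5 CPM in tumors 2, 4 and 20 and 122, 120.4 and 124 CPM in colons 2, 4 and 20. The colon libraries were nearly equal, and all tumors lay below them, tumor 2 the furthest. Mean Noxo1 was 87.6 ± 18.1 CPM in tumor and 122 ± 1.82 CPM in colon (SD), a log2 fold change of -0.48 (SE 0.16) that missed the threshold (edgeR adjusted p = 0.0549). It passed in 5 of 17 alternatives, with adjusted p-values between 0.0265 by DESeq2 and 0.147 by limma on log2(FPKM + 0.1) over all 17. Noxo1 overlaps Tbl3 on the opposite strand, and 70.4% of its 3013 exon bases are shared with exons of Tbl3 in GENCODE M21. Whether strand was used in counting could not be learned, so the Noxo1 value is uncertain. The same doubt holds to a lesser extent for Nox1, which shares 399 or 12.1% of its 3307 exon bases with Cstf2 on the opposite strand, and Noxa1, which shares 50 or 3.09% of 1617 with Entpd8.

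The next question was whether the dual oxidase pair Duox2 and Duoxa2 differed. Duox2 (ENSMUSG00000068452, chromosome 2, 122109728 to 122128930, minus strand) had 223, 468 and 339 CPM in tumors 2, 4 and 20 and 212, 195 and 169.8 CPM in colons 2, 4 and 20. All tumors lay above all colons, but tumor 2 only slightly so. Mean Duox2 was 344 ± 123 CPM in tumor and 192 ± 21.1 CPM in colon (SD), a 1.79-fold rise with a log2 fold change of 0.84 (SE 0.25, edgeR adjusted p = 0.0416). Within the numbers 2, 4 and 20 the log2 differences of Duox2 were 0.07, 1.27 and 1.0. As with Nox1, number 2 showed almost no difference. The call was lost with the block (edgeR adjusted p = 0.0695) and kept in 9 of 17 alternatives. Of the fits without 1 library it was kept only without tumor 2 (log2 fold change 1.08, edgeR adjusted p = 0.00755), the others gave an adjusted p of 0.0682 to 0.117, and without tumor 4 the log2 fold change was 0.55.

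Duoxa2 (ENSMUSG00000027225, chromosome 2, 122129381 to 122133366, plus strand) had 41.7, 126 and 82.0 CPM in tumors 2, 4 and 20 and 27.3, 38.4 and 28.1 CPM in colons 2, 4 and 20. The tumors had the same order as for Duox2, with tumor 4 the highest and tumor 2 the lowest, and all lay above the colons. Mean Duoxa2 was 83.2 ± 42.1 CPM in tumor and 31.3 ± 6.18 CPM in colon (SD), a 2.66-fold rise with a log2 fold change of 1.41 (SE 0.37, edgeR adjusted p = 0.0263). Within the numbers 2, 4 and 20 the log2 differences of Duoxa2 were 0.61, 1.71 and 1.54. The call was kept with the block (edgeR adjusted p = 0.0180) and in 13 of 17 alternatives. It was lost without tumor 20, colon 2, colon 4 or colon 20, with adjusted p-values of 0.0672, 0.0738, 0.0555 and 0.0825 by edgeR.

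Duoxa1, the maturation factor of Duox1, is not among the 9 genes but overlaps Duoxa2 on the opposite strand. It had 12.2, 36.0 and 26.6 CPM in tumors 2, 4 and 20 and 8.34, 11.0 and 6.48 CPM in colons 2, 4 and 20, and rose 2.90-fold (log2 fold change 1.53, SE 0.40, edgeR adjusted p = 0.0253). Its call was kept with the block (edgeR adjusted p = 0.0306) and in 12 of 17 alternatives, and was lost by limma-voom (adjusted p = 0.0565) and without tumor 4, tumor 20, colon 2 or colon 20 (edgeR adjusted p = 0.0574 to 0.0803). Its libraries were ordered in tumor as those of Duoxa2 were. Of the 1592 exon bases of Duoxa2, 682 or 42.8% are shared with exons of Duoxa1 in GENCODE M21, so if strand was not used in counting, reads of both genes there cannot be told apart.

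The catalytic subunit Duox1 (ENSMUSG00000033268, chromosome 2, 122146153 to 122178453, plus strand) lies beside Duoxa1 and was close to absent in both tissues. Its fragment counts were 19, 14 and 1 in tumors 2, 4 and 20 and 10, 4 and 10 in colons 2, 4 and 20. The groups overlapped, tumor 20 was the lowest of all libraries, and no difference was detectable at this depth (log2 fold change 0.28, SE 0.81, edgeR adjusted p = 0.818). Its sign turned without tumor 2 (-0.31) and by limma-voom (-0.22).

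**Figure D2:**
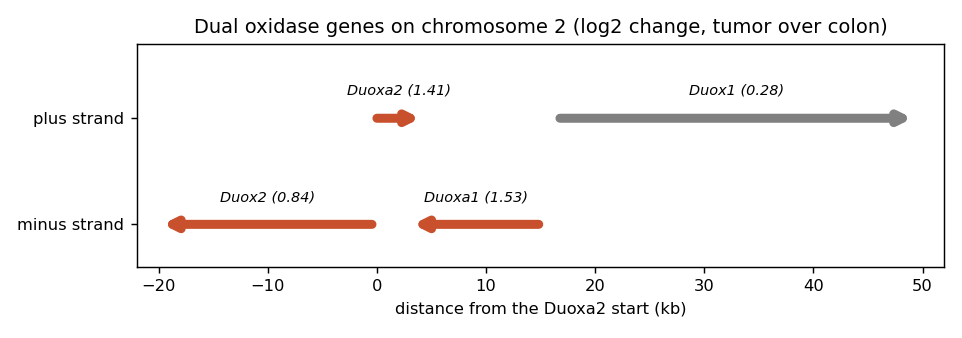
The dual oxidase genes on mouse chromosome 2 drawn to scale as arrows in the direction of transcription, with distance in kb from the start of Duoxa2 on the horizontal axis and the log2 fold change of tumor over colon beside each gene. Duox2 and Duoxa2 start 451 bases apart and point away from each other, Duoxa2 and Duoxa1 overlap at their ends, and the values are 0.84 for Duox2, 1.41 for Duoxa2, 1.53 for Duoxa1 and 0.28 for Duox1.

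The starts of Duox2 and Duoxa2 lie 451 bases apart on opposite strands in GRCm39, the starts of Duoxa1 and Duox1 lie 1942 bases apart, and the 4 genes span 68726 bases. The promoter windows of Duox2 and Duoxa2 are shown because these neighboring genes both rose. They come from RefSeq (GRCm38.p6) and run from 250 bases before to 50 bases after the RefSeq start, at chr2:122298178-122298477 on the minus strand for Duox2 and chr2:122298650-122298949 on the plus strand for Duoxa2. Capitals mark matches on either strand to 6 motifs, which were the TATA box TATAAA, the GC box GGGCGG that Sp1 binds, the AP-1 motif TGANTCA, the STAT motif TTCNNNGAA, the GATA factor motif GATAAG and the motif TTTATNG of the intestinal Cdx factors.
Duox2: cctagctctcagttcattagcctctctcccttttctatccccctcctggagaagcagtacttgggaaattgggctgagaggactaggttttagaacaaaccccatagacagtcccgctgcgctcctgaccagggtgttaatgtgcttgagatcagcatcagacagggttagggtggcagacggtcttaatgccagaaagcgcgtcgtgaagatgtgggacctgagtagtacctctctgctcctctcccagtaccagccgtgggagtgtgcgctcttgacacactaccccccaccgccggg
Duoxa2: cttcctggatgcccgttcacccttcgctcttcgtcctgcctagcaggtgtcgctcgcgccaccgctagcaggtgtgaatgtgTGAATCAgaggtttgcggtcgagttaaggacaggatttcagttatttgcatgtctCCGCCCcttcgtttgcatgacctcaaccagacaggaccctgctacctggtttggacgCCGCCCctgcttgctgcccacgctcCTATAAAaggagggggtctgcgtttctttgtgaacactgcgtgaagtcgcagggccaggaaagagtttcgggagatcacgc
The RefSeq starts of both genes lie 673 bases apart and not 451, so the Duox2 window rests on a start inside the gene as the deposited table bounds it and covers almost none of the sequence before that outer start. The Duoxa2 window holds TATAAA starting 30 bases before the start, a motif found in 13.6% of 32851 promoter windows of this length. The TTTATNG match on the reverse strand overlaps that TATAAA. It also holds TGANTCA 168 bases before the start, which 7.81% of windows hold, and GGGCGG on the reverse strand 113 and 56 bases before the start, which 35.7% of windows hold. None of the 6 motifs is in the printed Duox2 window, which for the reason given says little of the bases before the outer start. These matches describe letters and not bound sites.

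The windows of Nox1 and Cyba are shown for contrast, as the genes that fell and rose the most among the 9. They lie at chrX:134111805-134112104 and chr8:122432891-122433190 in GRCm38.p6, both on the minus strand, with the same motifs in capitals. The RefSeq starts of both genes were not checked against the outer starts in the deposited table, where Nox1 also overlaps Xkrx and Arl13a.
Nox1: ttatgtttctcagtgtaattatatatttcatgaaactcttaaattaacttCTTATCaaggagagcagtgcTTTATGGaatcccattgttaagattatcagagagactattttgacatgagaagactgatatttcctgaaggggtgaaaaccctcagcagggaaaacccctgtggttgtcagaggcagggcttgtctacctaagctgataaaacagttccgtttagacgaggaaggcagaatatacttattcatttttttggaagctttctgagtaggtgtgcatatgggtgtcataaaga
Cyba: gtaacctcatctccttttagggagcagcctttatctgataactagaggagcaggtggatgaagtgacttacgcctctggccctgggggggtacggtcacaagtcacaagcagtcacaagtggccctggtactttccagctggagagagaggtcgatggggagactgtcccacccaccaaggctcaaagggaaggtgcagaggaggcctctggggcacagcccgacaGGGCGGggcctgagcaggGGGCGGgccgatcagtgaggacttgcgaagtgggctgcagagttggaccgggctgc
In the Nox1 window 38.0% of bases are G or C, and it holds GATAAG on the reverse strand 200 bases and TTTATNG 180 bases before the start, motifs found in 7.44% and 10.9% of windows. The Cyba window has 60.7% G or C and holds GGGCGG 24 and 6 bases before the start. TTCNNNGAA, found in 8.30% of windows, was matched among the 9 genes in the Nox4 window alone.

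The membrane partner Cyba changed the most of the 9 genes. Cyba (ENSMUSG00000006519, chromosome 8, 123151515 to 123159669, minus strand) had 171, 141 and 142 CPM in tumors 2, 4 and 20 and 41.4, 50.8 and 37.8 CPM in colons 2, 4 and 20. The gap between the lowest tumor and the highest colon was wider than the spread within either tissue. Mean Cyba was 152 ± 16.9 CPM in tumor and 43.3 ± 6.68 CPM in colon (SD), a 3.50-fold rise with a log2 fold change of 1.81 (SE 0.15, edgeR adjusted p = 0.000393). The differences within the numbers 2, 4 and 20 were 2.05, 1.47 and 1.91 on the log2 scale. The call of Cyba was kept in all 17 alternatives, with log2 fold changes of 1.72 to 1.94 and adjusted p-values up to 0.00277, and it was the only gene of the 9 of which this holds.

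The catalytic subunit of phagocytes, Cybb (ENSMUSG00000015340, chromosome X, 9301491 to 9354010, minus strand), had 17.7, 31.3 and 23.3 CPM in tumors 2, 4 and 20 and 15.4, 18.4 and 13.8 CPM in colons 2, 4 and 20. Tumor 2 lay below colon 4, so the groups overlapped. The log2 fold change of Cybb was 0.60 (SE 0.23) and did not pass the test (edgeR adjusted p = 0.0879). It passed only without tumor 2 (log2 fold change 0.79, edgeR adjusted p = 0.0343), and the adjusted p ranged up to 0.231 over the 17 alternatives.

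Markers of cells that carry the phagocyte oxidase moved between the tissues. Of 11 neutrophil markers 7 were tested, and 6 were called higher and 0 lower, with a summed CPM of 128 to 261 in tumor and 12.4 to 73.7 in colon. The tested marker without a call, Ly6g, had the highest mean CPM of those tested and is part of these sums. Mpo, Elane, Ngp and Camp were not tested, and Elane was at 0 in all 6 libraries. Of 11 macrophage markers 5 were called higher and 0 lower, with a summed CPM of 508 to 567 in tumor and 288 to 469 in colon. This macrophage count was 0 without colon 4, 1 without tumor 20, 2 without tumor 2 or colon 20 and 7 without colon 2, whereas the neutrophil count was 6 without any one library. Among the macrophage markers, Cd14 and Csf1r rose by 1.20 and 0.61 on the log2 scale (edgeR adjusted p = 0.0144 and 0.0267). Tumor 2 had the highest neutrophil and macrophage sums of the tumors, and it was the tumor highest in Cyba and lowest in Cybb. The part of these cells in the values of Cyba and Cybb was not tested.

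Nox4, a catalytic subunit that makes hydrogen peroxide without cytosolic activators (ENSMUSG00000030562, chromosome 7, 86895304 to 87047918, plus strand), was near the limit of detection. Its fragment counts were 44, 34 and 22 in tumors 2, 4 and 20 and 9, 12 and 29 in colons 2, 4 and 20. Colon 20 was above tumor 20, so the groups overlapped. The log2 fold change of 0.80 (SE 0.51) did not pass the test (edgeR adjusted p = 0.269), and it was not called in any of the 17 alternatives. The value was 0.49 without colon 2 and 1.42 without colon 20.

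**Figure D3:**
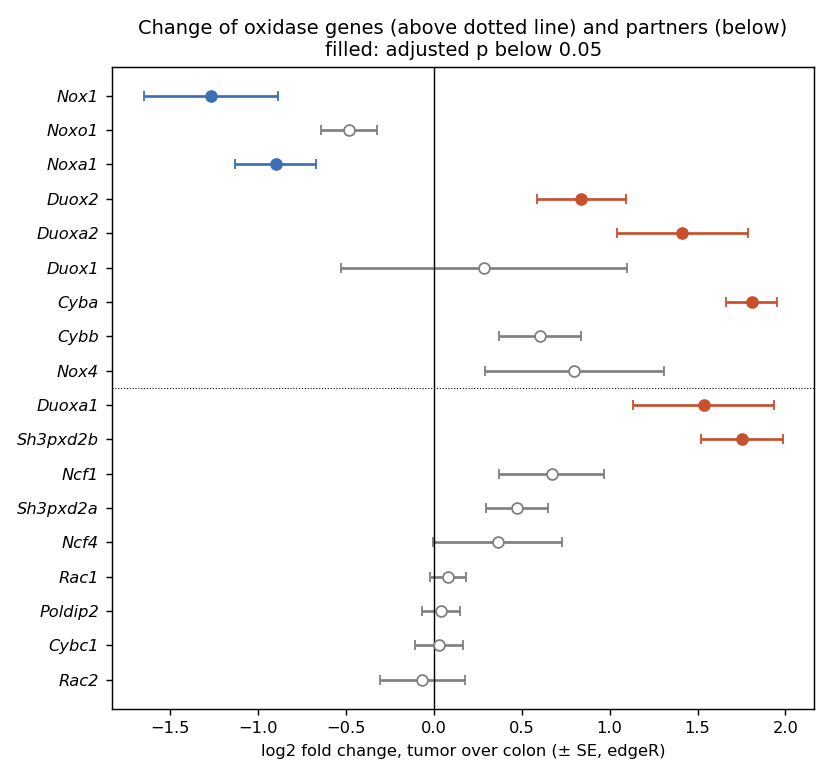
Log2 fold change of tumor over colon with its SE for the 9 oxidase genes and for 9 other genes of the NADPH oxidase system; filled points have an edgeR adjusted p below 0.05. Cyba, Duoxa2 and Duox2 lie above 0 and Nox1 and Noxa1 below it with filled points, and of the other genes only Sh3pxd2b and Duoxa1 are filled.

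Among 10 other genes of the NADPH oxidase system, 9 were tested, and 2 were called higher and 0 lower. This is to be read against the 16.1% of all genes called in each direction. Their median log2 fold change was 0.36, against 0.01 over all genes tested. The count of higher genes was 1 by limma-voom and without tumor 4, colon 2 or colon 20, and 3 with the block. In the main test the called genes were Duoxa1 and Sh3pxd2b, a scaffold protein related to the organizers of the family. Sh3pxd2b had 170.1, 109 and 127 CPM in tumors 2, 4 and 20 and 51.8, 37.0 and 31.9 CPM in colons 2, 4 and 20. The groups were well apart, Sh3pxd2b rose 3.36-fold (log2 fold change 1.75, SE 0.23, edgeR adjusted p = 0.00225), and its call was kept in all 17 alternatives.

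Ncf1 and Ncf4, cytosolic partners of Cybb, gave no call. The organizer Ncf1 had a log2 fold change of 0.67 (SE 0.30, edgeR adjusted p = 0.129) and Ncf4 of 0.36 (edgeR adjusted p = 0.484). The small GTPases Rac1 and Rac2, which switch the complexes on, had log2 fold changes of 0.08 and -0.07 (edgeR adjusted p = 0.587 and 0.860). Cybc1, a chaperone of Cybb and Cyba, was at 0.03 and Poldip2, a partner of Nox4, at 0.04 (edgeR adjusted p = 0.887 and 0.793). Sh3pxd2a, a relative of Sh3pxd2b, was at 0.47 (edgeR adjusted p = 0.0791). Nox3, the oxidase of the inner ear, had 1 count in colon 2 and 0 elsewhere and was not tested.

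Levels of different genes were compared in FPKM, which corrects the fragment counts for exon length and library total. In tumor the order was Cyba (152 ± 18.7 FPKM, SD), Duoxa2 (54.4 ± 27.7), Duox2 (52.8 ± 19.0), Noxo1 (30.2 ± 5.93), Noxa1 (21.4 ± 4.59), Nox1 (9.24 ± 0.633), Cybb (4.32 ± 1.23), Nox4 (0.202 ± 0.0608) and Duox1 (0.108 ± 0.0892). Among neighbors in this order, Duoxa2 and Duox2, Noxo1 and Noxa1, and Nox4 and Duox1 overlapped between libraries. In colon it was Cyba (40.0 ± 6.38 FPKM, SD), Noxo1 (38.8 ± 0.606), Noxa1 (36.6 ± 7.87), Duox2 (27.2 ± 3.49), Nox1 (20.3 ± 10.2), Duoxa2 (18.8 ± 3.72), Cybb (2.62 ± 0.396), Nox4 (0.106 ± 0.0631) and Duox1 (0.0812 ± 0.0317). There each neighbor from Cyba down to Duoxa2 overlapped with the next, and the gaps were those from Duoxa2 to Cybb and from Cybb to Nox4. By mean FPKM, Noxo1 and Noxa1 therefore stood above Duox2 in colon and below Duox2 and Duoxa2 in tumor. Nox1 ranked below Duox2 in both tissues, and only in colon did their libraries overlap. Every colon value of Nox1 lay below every colon value of Cyba (9.33 to 29.6 against 34.2 to 46.8 FPKM). The doubt about strand given above also holds for the levels of Noxo1 and Duoxa2, and to a lesser extent for those of Nox1 and Noxa1.

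**Figure D4:**
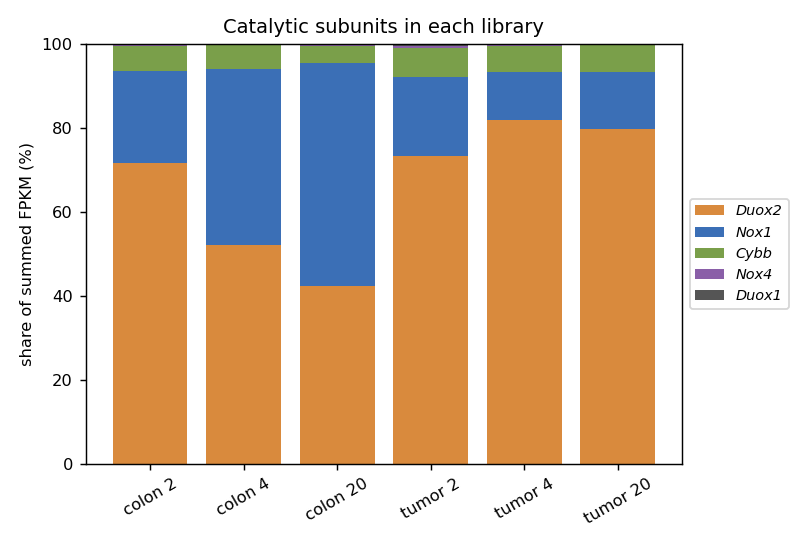
Share in percent of the summed FPKM of the 5 catalytic subunits Nox1, Nox4, Duox1, Duox2 and Cybb in each library, as stacked bars. Duox2 holds 73.4 to 82.0% in the tumors and 42.3 to 71.6% in the colons, and Nox1 11.3 to 18.9% and 21.9 to 53.1%.

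Duox2 and Nox1 together made up most of the catalytic subunit RNA in every library. Of the summed FPKM of the 5 catalytic subunits, Duox2 held 73.4, 82.0 and 79.7% in tumors 2, 4 and 20 and 71.6, 52.2 and 42.3% in colons 2, 4 and 20. Nox1 held 18.9, 11.3 and 13.7% in the tumors and 21.9, 41.8 and 53.1% in the colons. Colon 2 was closer to the tumors than to the other colons, and in colon 20 Nox1 was the larger of both. The sum itself was 47.3, 88.5 and 64.2 FPKM in tumors 2, 4 and 20 and 42.6, 52.8 and 55.7 FPKM in colons 2, 4 and 20. These shares were chosen as a measure after the values were seen and are given with no test.

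The balance between members was compared for 6 pairs as the difference of their log2 CPM within a library, with an exact two-sided permutation test whose smallest p is 0.1 at 3 against 3 libraries. No pair could therefore reach 0.05. Nox1 minus Duox2 was -3.48 ± 0.46 in tumor and -1.60 ± 1.04 in colon (SD), a difference of -1.88 (exact permutation p = 0.1, adjusted over 6 pairs 0.3). The groups did not overlap, but within number 2 the difference was -0.25, against -2.54 and -2.86 within numbers 4 and 20. All tumors were below all colons in Nox1 and above them in Duox2. The lack of overlap and the p of 0.1 in this pair were therefore fixed by these values and add nothing to them. Cybb minus Cyba was -2.68 ± 0.55 in tumor and -1.44 ± 0.02 in colon (SD), a difference of -1.24 (exact permutation p = 0.1, adjusted 0.3), again with no overlap.

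In the other 4 pairs the groups overlapped. Duoxa2 minus Duox2 was -2.12 ± 0.27 in tumor and -2.63 ± 0.31 in colon (SD), a difference of 0.51 (exact permutation p = 0.2, adjusted 0.4) that was 0.54, 0.44 and 0.55 within numbers 2, 4 and 20. Noxo1 minus Nox1 differed by 0.60 and Noxa1 minus Nox1 by 0.21 on the log2 scale (exact permutation p = 0.4 and 0.7). Within numbers 2, 4 and 20 the former was -0.69, 0.94 and 1.56 and the latter -0.78, 0.52 and 0.88, so number 2 went the other way in both. Without colon 20 the values were 0.25 and 0.01. Duox1 minus Duox2 differed by -0.87 (exact permutation p = 0.6) on the few Duox1 counts given above, and by -0.03 without tumor 20. The doubt about strand in counting also holds for the pairs with Duoxa2 or Noxo1.

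Genes with the most similar pattern were looked up by Pearson's r of log2 CPM over the 6 libraries among 12001 genes with a mean of at least 5 CPM, leaving out predicted genes. For Nox1 these were Bag1 (r = 0.993), Ppa2 (0.993), Nrarp (0.993), Hexa (0.990) and Vsig2 (0.989), and 76 genes exceeded 0.95. For Duox2 they were Fam185a (r = 0.992), Ly6d (0.987), Zfp125 (0.984), Tkfc (0.983) and Dgat2 (0.983). For Cybb they were Prpf6 (r = 0.998), Tkfc (0.985), Ly6d (0.984), Duoxa2 (0.981) and Duoxa1 (0.980). For Duox2 32 genes and for Cybb 23 genes exceeded 0.95. The named genes are the highest of 12001 values, each over only 6 libraries, and these libraries form a pair of clusters by tissue. Such values are therefore a description only.

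Enzymes that use or remove the products of the oxidases, and those that supply NADPH, were called in small numbers, to be read against the 16.1% of all genes called in each direction. Of 10 tested genes of superoxide and peroxide removal, 3 were called higher and 1 lower, with a median log2 fold change of -0.07. The peroxiredoxins Prdx1 and Prdx2 rose by 0.72 and 0.78 on the log2 scale (edgeR adjusted p = 0.00466 and 0.00800), whereas Prdx6 fell by 1.56 (edgeR adjusted p = 0.0344). The call of Prdx6 was lost with the number as a block (edgeR adjusted p = 0.0658) and kept in 10 of 17 alternatives; without tumor 2, tumor 20, colon 2 or colon 4 it was lost too. The lactoperoxidase gene Lpo, whose enzyme uses hydrogen peroxide, had 10.7, 23.1 and 26.0 CPM in tumors 2, 4 and 20 and 48.2, 39.4 and 46.9 CPM in colons 2, 4 and 20. It fell by 1.17 on the log2 scale (edgeR adjusted p = 0.0259) and was the only call among 2 tested heme peroxidases, though the call was lost without any one of the colon libraries. Of 9 genes of NADPH supply, 2 were called higher and 0 lower, with a median of 0.21. Leaving out 1 library gave 3 higher genes without tumor 2 and 1 without tumor 4, tumor 20, colon 2 or colon 20. The called genes were G6pdx, the entry enzyme of the pentose phosphate pathway (log2 fold change 0.62, edgeR adjusted p = 0.0117), and the cytosolic isocitrate dehydrogenase Idh1 (0.79, edgeR adjusted p = 0.0323), while Pgd and Tkt were at 0.40 and -0.00 (edgeR adjusted p = 0.105 and 0.994).

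Of the remaining marker lists, 8 of 8 smooth muscle and 7 of 8 enteric nerve and glia markers were called lower and 0 higher. The summed CPM of the nerve and glia markers overlapped, at 15.2 to 58.7 in tumor and 47.9 to 77.6 in colon. Of 12 pan-epithelial genes 3 were called higher and 0 lower, and 1 higher without tumor 2, tumor 20, colon 2 or colon 4. Of 7 tested B cell markers 3 were called lower and 0 higher, with a summed CPM of 4.89 to 33.4 in tumor and 33.8 to 98.4 in colon. This B cell count was 0 without tumor 2, tumor 20, colon 2 or colon 4, 2 without colon 20 and 7 without tumor 4. Of 7 T cell markers 1 was called higher and 0 lower. Of 5 eosinophil markers 3 were tested and 1, Il5ra, was called higher, while their median log2 fold change was -0.54. Of 8 fibroblast markers 2 were called higher and 2 lower. Of 7 endothelial markers 1 was called lower, and 4 distal hindgut genes gave 0 calls. All these list counts are to be read against the 16.1% of all genes called in each direction. The T cell, eosinophil, fibroblast and endothelial counts also changed when single libraries were left out. Without colon 4, 5 nerve and glia markers were called lower, and without tumor 2, 1 was called higher. Without tumor 4, 1 distal hindgut gene was called lower. Scaling the libraries to the summed counts of the pan-epithelial genes kept the calls of Cyba, Duoxa2, Duox2, Nox1 and Noxa1, with log2 fold changes of 1.86, 1.49, 0.91, -1.23 and -0.86 in that order.

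**Figure D5:**
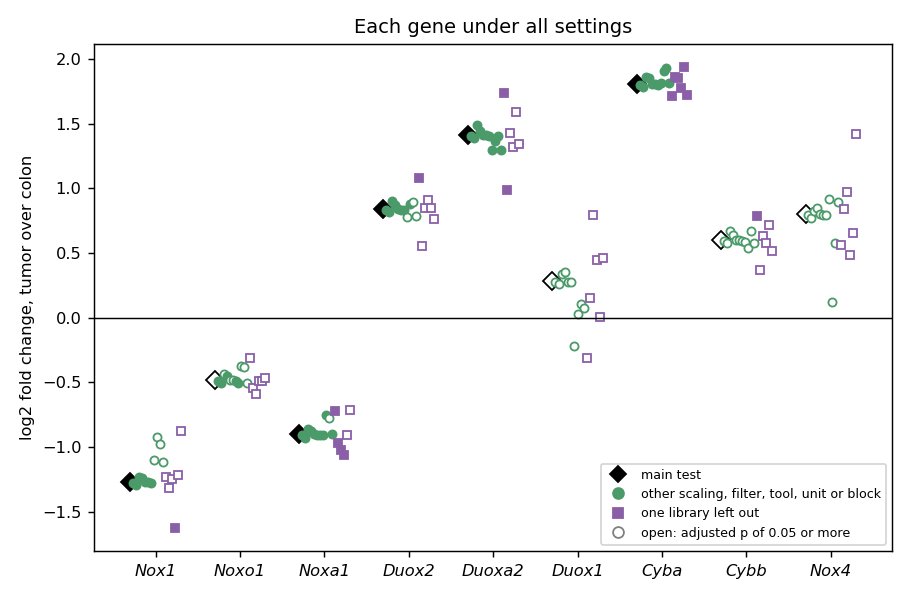
Log2 fold change of tumor over colon of each of the 9 genes under the main test (diamond), other scalings, filters, tools, units or the block (circles) and without 1 library (squares); open symbols have an adjusted p of 0.05 or more. Cyba is filled throughout at 1.72 to 1.94, Nox4 and Duox1 are open throughout, and Duox1 alone crosses 0.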

How the data were processed

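Groups follow the sample labels. Per the labels, stranded mRNA libraries were made from total RNA of frozen tissue. Cutadapt, HISAT and GRCm39 are named in the submitters' processing notes; tool versions, the counter and how it treated strand were not given in the sources used here. What the authors deposited were raw fragment counts per gene and FPKM values made from them. Precision is limited by 16995481 to 20789620 counts per library.

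The test was edgeR's quasi-likelihood test (edgeR 4.0.16, R 4.3.3) after filterByExpr and TMM scaling, and the script was tested on simulated data. CPM used TMM-scaled library sizes, and log2 CPM used a prior count of 2. An approximate SE came from the log2 fold change over the square root of F. Pair measures were tested in SciPy 1.17.1. Exon overlaps come from GENCODE M21, a different build, from which no coordinates were taken. Promoters were matched by symbol for 9 of 9 genes.

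Alternatives were RLE, upper quartile and pan-epithelial scaling, a filter of at least 1 CPM in 3 libraries or none, DESeq2 1.42.0, limma-voom and limma 3.58.1 on log2(FPKM + 1) and log2(FPKM + 0.1), the number as a block, and leaving out each library. Scaling to the median ratio of the pan-epithelial genes was added after seeing the data. The series design calls the tissues paired and the labels share numbers, so equal numbers were taken as pairs; after group means were taken off, the libraries of numbers 2, 4 and 20 correlated at 0.19, 0.12 and 0.02. Genes named were the 9 oxidase genes, the listed other genes of the oxidase system, for Nox1, Duox2 and Cybb the 5 genes of highest correlation, and from the other lists genes of lowest adjusted p or highest CPM. Some items are not reported here. Members and lists were chosen with earlier results of these data known.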

Additional observations from a re-analysis of the deposited data

How the results depend on the processing

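Of the 9 oxidase genes, 3 were called higher and 2 lower. With the number as a block 2 were called higher, Cyba and Duoxa2, and 1 lower, Noxa1. The block changed no other call of the 9 genes than those of Nox1 and Duox2. Limma gave 1 lower gene on log2(FPKM + 1) and 0 on log2(FPKM + 0.1), settings that change the unit and the test and move the share of higher among all called genes from 49.9% to 62.5% and 60.9%. Leaving out 1 library gave 1 to 4 higher and 0 to 2 lower genes: Cyba was the only gene called higher without tumor 20, colon 2, colon 4 or colon 20, and no gene was called lower without colon 4 or colon 20. These fits have fewer libraries, and over all genes they called between 1905 and 2908 higher. The log2 fold change of Duox1 reversed to -0.22 by limma-voom and to -0.31 without tumor replicate 2, the values without 1 library ran from -0.31 to 0.80, and the cause was not tested. At least 1 CPM in 3 libraries left Duox1 untested. No pair measure changed sign with a prior count of 0.5, on log2(FPKM + 0.1) or without 1 library, but without 1 library Noxa1 minus Nox1 ran from 0.01 to 0.53, Noxo1 minus Nox1 from 0.25 to 1.10 and Duox1 minus Duox2 from -1.67 to -0.03. Prdx6 also lost its call with the block (edgeR adjusted p = 0.0658). Few counts limit Duox1 and Nox4.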
